A study of Mus musculus with 25 samples.

Results

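The genes described here encode the alpha chains of the collagens. They were chosen by symbol, as every mouse gene named Col, a number, a and a number. Of the 41388 gene identifiers in the count files, 44 carried such a symbol, and all 44 had counts in at least 1 library. Liver RNA was sequenced from 25 male C57B/6J mice, 1 poly-A selected library per mouse, at an age of 20 weeks. The study asked how hepatocyte NAMPT and SIRT1 shape the liver's response to a Western diet (WD). WT mice were SIRT1 fl/fl littermates without Cre, and LKO mice carried the same LoxP alleles together with an Albumin-cre transgene, which is active in hepatocytes. Every mouse, controls included, received an AAV8 virus whose thyroxine-binding globulin promoter restricts expression to hepatocytes, and which held either NAMPT or no insert (EV, empty vector). The 5 groups were chow WT EV (n = 3), WD WT EV (n = 6), WD WT NAMPT (n = 6), WD LKO EV (n = 5) and WD LKO NAMPT (n = 5), with 12 weeks of diet. One label names the insert as SIRT1, while each title names NAMPT, and the titles were followed. No chow-fed mice received NAMPT or carried the LKO genotype, so the diet contrast rests on WT EV livers.

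Collagens are built from 3 alpha chains wound into a triple helix. Fibrillar collagens, led by types I, III and V, form the tensile fibrils of connective tissue and of scars. Basement membrane collagens of the type IV family form sheet-like networks under epithelia and around vessels. The remaining types include microfibrils (type VI), molecules that decorate fibrils (types XII, XIV and XVI), the proteoglycan-like types XV and XVIII, and transmembrane forms. In the liver, stellate cells and portal fibroblasts are the classical sources of fibrillar collagen, and type I collagen is the main component of fibrotic scar. Type XVIII collagen, the parent of endostatin, is made by hepatocytes as well.

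Total counts ran from 20166175 to 32937326 per library, and levels are given as CPM, the count scaled to the library's total, after TMM normalization. Alb, Apoa1 and Ttr, secreted hepatocyte proteins, were among the hepatocyte markers whose summed level ran from 45153 to 76330 CPM, the level of a liver. Sirt1, the gene labelled as deleted, was at 7.16 to 10.1 CPM in the WD LKO EV libraries, 8.09 to 11.1 in WD LKO NAMPT, 7.99 to 9.53 in WD WT EV and 7.62 to 9.32 in WD WT NAMPT. A count over the whole gene therefore did not separate the libraries labelled LKO from WT, and the LKO label was not checked by it. Nampt was at 47.4 ± 6.46 CPM in WD WT EV (SD, n = 6) and 59.5 ± 10.6 in WD WT NAMPT (n = 6), with log2 fold change 0.34 (SE 0.16, adjusted p = 0.144). In WD LKO NAMPT it was at 79.9 ± 28.4 CPM (n = 5), against 56.1 ± 12.0 in WD LKO EV (n = 5), with log2 fold change 0.41 (SE 0.16, adjusted p = 0.403). The gene was thus not called in either NAMPT contrast. Within the WD WT NAMPT group, the library of replicate 6 (WT NAMPT 6) had the lowest level of the 6 for 14 of 27 collagen genes. In the WD LKO NAMPT group, the library of replicate 1 (LKO NAMPT 1) had the highest level of the 5 for 12 of 27. Other groups held such libraries too: chow WT EV 1 was lowest for 14 and chow WT EV 3 highest for 14, WT EV 6 was lowest for 13, and LKO EV 1 was highest for 13 and LKO EV 4 lowest for 12. Counts that change when a library is left out are given with and without it.

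By class, the 44 genes comprised 11 fibrillar, 6 basement membrane and 27 other genes. A total of 27 genes passed the filter of more than 1 CPM in at least 2 libraries and were tested among 14065 genes: 7 fibrillar, 5 basement membrane and 15 others. The other 17 stayed below it, and their highest level in any library lay between 0.0764 CPM (Col6a4) and 1.01 CPM (Col6a6). They were the cartilage chains Col2a1 (highest 0.140), Col11a1 (0.122), Col11a2 (0.789), Col9a1 (0.178), Col9a2 (0.161) and Col9a3 (0.351), together with Col24a1 (0.814), Col4a6 (0.401), Col6a5 (0.586), Col7a1 (0.455), Col8a2 (0.496), Col17a1 (0.683), Col22a1 (0.189), Col23a1 (0.916) and Col28a1 (0.116). Type VII and XVII collagens anchor epithelia to the dermis, and type IX and XI collagens belong to cartilage fibrils. Col20a1 and Col25a1 passed only through chow libraries, 2 of 3 each, and 0 of the 22 WD libraries exceeded 1 CPM for either gene.

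On GRCm38, as the count files give it, the genes the results turn on lie as follows, each value being the summed exons of the whole gene. The type I chains are Col1a1 (ENSMUSG00000001506) at chr11:94936224-94953042 on the plus strand and Col1a2 (ENSMUSG00000029661) at chr6:4504814-4541543 on the plus strand. Col3a1 (ENSMUSG00000026043) at chr1:45311538-45349706 on the plus strand and Col5a2 (ENSMUSG00000026042) at chr1:45374321-45503282 on the minus strand are neighbours. The other type V chains are Col5a1 (ENSMUSG00000026837) at chr2:27886425-28039514 on the plus strand and Col5a3 (ENSMUSG00000004098) at chr9:20770050-20815067 on the minus strand. The type IV pair is Col4a1 (ENSMUSG00000031502) at chr8:11198423-11312826 on the minus strand and Col4a2 (ENSMUSG00000031503) at chr8:11312805-11449287 on the plus strand, head to head. Of the type VI chains, Col6a1 (ENSMUSG00000001119) at chr10:76708792-76726168 on the minus strand and Col6a2 (ENSMUSG00000020241) at chr10:76595762-76623630 on the minus strand share a chromosome, and Col6a3 (ENSMUSG00000048126) at chr1:90765923-90843971 on the minus strand stands apart. Col16a1 (ENSMUSG00000040690) at chr4:130047840-130099283 on the plus strand and Col18a1 (ENSMUSG00000001435) at chr10:77052178-77166548 on the minus strand complete the set called with NAMPT, and Col12a1 (ENSMUSG00000032332) at chr9:79598991-79718831 on the minus strand, Col20a1 (ENSMUSG00000016356) at chr2:180986535-181017540 on the plus strand and Col25a1 (ENSMUSG00000058897) at chr3:130180891-130599877 on the plus strand those called with the diet.

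Promoter windows of 4 of the genes are shown, 3 whose levels were higher with NAMPT in WT livers (Col3a1, Col5a1, Col6a3) and the fibrillar gene Col5a3, which was higher on WD but not with NAMPT. Each is the 250 bases before the RefSeq start, on GRCm38.p6, read 5′ to 3′ on the gene's strand, with 3 promoter motifs in capitals wherever they occur on either strand, namely the letters CCAAT of the CCAAT box, the letters GGGCGG of the GC box (written CCGCCC when on the other strand) and the letters TATAAA of the TATA box. They lie at chr1:45311288-45311537 on the plus strand, chr2:27886175-27886424 on the plus strand, chr1:90843972-90844221 on the minus strand and chr9:20815068-20815317 on the minus strand, in this order.
Col3a1: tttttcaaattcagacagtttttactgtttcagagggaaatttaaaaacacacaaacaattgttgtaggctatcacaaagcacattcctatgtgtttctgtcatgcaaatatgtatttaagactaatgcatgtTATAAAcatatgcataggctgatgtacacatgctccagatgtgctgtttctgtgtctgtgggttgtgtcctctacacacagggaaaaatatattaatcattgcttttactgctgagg
Col5a1: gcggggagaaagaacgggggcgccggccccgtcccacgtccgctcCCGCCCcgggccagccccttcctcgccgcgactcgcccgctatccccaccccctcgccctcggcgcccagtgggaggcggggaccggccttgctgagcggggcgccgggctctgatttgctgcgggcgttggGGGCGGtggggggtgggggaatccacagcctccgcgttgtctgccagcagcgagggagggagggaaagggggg
Col6a3: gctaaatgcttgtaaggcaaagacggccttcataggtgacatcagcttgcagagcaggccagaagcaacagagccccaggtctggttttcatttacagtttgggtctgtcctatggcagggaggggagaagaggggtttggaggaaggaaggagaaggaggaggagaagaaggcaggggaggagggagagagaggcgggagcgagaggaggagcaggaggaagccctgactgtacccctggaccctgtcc
Col5a3: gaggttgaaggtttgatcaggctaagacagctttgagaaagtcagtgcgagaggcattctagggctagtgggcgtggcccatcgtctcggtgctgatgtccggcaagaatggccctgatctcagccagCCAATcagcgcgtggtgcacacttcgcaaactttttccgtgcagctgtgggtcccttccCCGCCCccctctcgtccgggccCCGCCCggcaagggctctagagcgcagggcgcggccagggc
The Col3a1 window held 1 TATAAA, 117 bases before the start, in a sequence of 35.2% G and C. The Col5a1 window was 76.4% G and C and held GGGCGG 2 times. In Col5a3 there were 1 CCAAT and 2 GGGCGG. The Col6a3 window held none of the 3 motifs. Across the 21 tested collagen genes with a window in the RefSeq table, 8 had CCAAT, 11 GGGCGG and 3 TATAAA, and of all 32851 windows 33.8% had CCAAT, 32.7% GGGCGG and 12.4% TATAAA. A match is a run of letters and not a measured site.

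Per kilobase of exon, which allows levels of different genes to be compared, Col18a1 was far ahead in every group. Its mean level was 154 ± 12.2 CPM per kb in chow WT EV (SD, n = 3), 146 ± 15.4 in WD WT EV (n = 6), 116 ± 18 in WD WT NAMPT (n = 6), 140 ± 8.50 in WD LKO EV (n = 5) and 132 ± 8.14 in WD LKO NAMPT (n = 5). It made up 77.3% to 80.2% of the summed collagen level per kb in chow libraries. In WD WT EV the share was 63.8% to 79.3% (median 74.7%), in WD WT NAMPT 42.9% to 78.4% (median 58.0%), in WD LKO EV 64.1% to 75.0%, and in WD LKO NAMPT 60.8% to 71.2%. The share was lowest in WT NAMPT 2 and, within that group, highest in WT NAMPT 6. In chow livers the next genes per kb were Col14a1, a fibril-associated collagen, at 11.7 ± 1.65, Col4a1 at 7.90 ± 1.07, Col4a2 at 4.70 ± 0.935 and Col3a1 at 2.40 ± 0.477 (n = 3 each). Col4a1 and Col4a2, which assemble 2 to 1 in the common type IV protomer, had ratios per kb between 1.33 and 1.95 across the 25 libraries. These are RNA ratios over annotated exon lengths and not counts of chains.

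**Figure D1:**
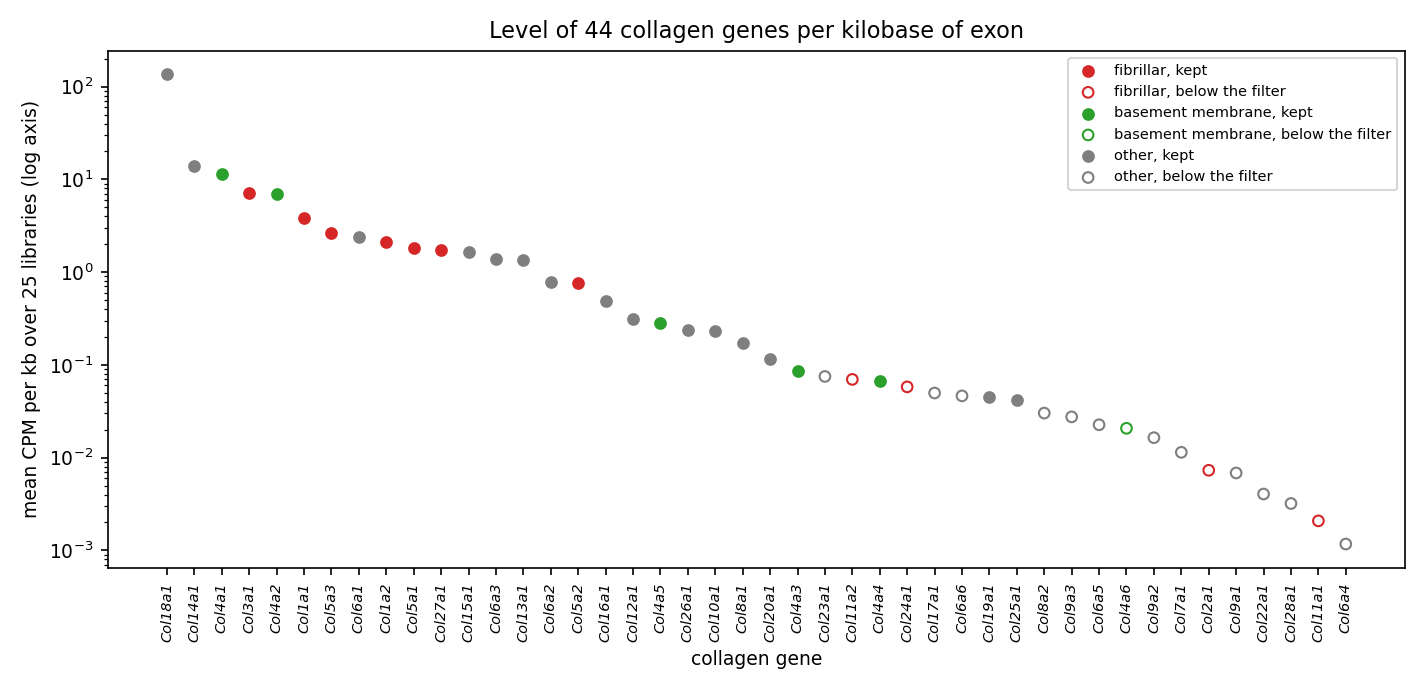
Mean level of each of the 44 collagen genes per kilobase of exon over the 25 libraries (CPM per kb, log axis), in falling order, with colors for the class and open circles for genes below the filter. Col18a1 lies at 136 CPM per kb, followed by Col14a1 at 13.8 and Col4a1 at 11.3, and Col6a4 is last at 0.00117.

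The median of the summed fibrillar level per kb was lowest on chow and highest in WD WT NAMPT, and the libraries of WD WT EV and WD WT NAMPT overlapped. No test was made on the sums. The sum was 9.76, 8.00 and 10.6 CPM per kb at the median, lowest and highest chow library. In WD WT EV it ran from 11.6 through a median of 13.8 to 27.3, so the chow and WD WT EV libraries did not overlap. WD WT NAMPT libraries ran from 10.5 (WT NAMPT 6) through a median of 28.8 to 57.8 (WT NAMPT 2). The median was 18.7 (11.6 to 27.1) in WD LKO EV and 17.8 (14.2 to 29.7) in WD LKO NAMPT, both overlapping WD WT EV, with LKO NAMPT 1 at 29.7 above its highest library. Summed basement membrane levels had medians of 13 in chow WT EV, 15.2 in WD WT EV, 24.3 in WD WT NAMPT, 17.7 in WD LKO EV and 18.2 in WD LKO NAMPT, in CPM per kb.

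On WD, 4 collagen genes were higher and 2 lower than on chow in WT EV livers. Those that rose were the fibrillar Col3a1 and Col5a3, the basement membrane chain Col4a2 and Col12a1, a collagen that links fibrils. Col20a1 and Col25a1 fell. In all, 6 of 27 collagen genes were called, against 22% of all genes tested, so the share was near that of all genes. Of the 27, 4 rose (10.1% of all genes did) and 2 fell (12% of all genes did), and their median log2 fold change was 0.24, against -0.005 over all genes. The edgeR quasi-likelihood test called 4 of 27 (9.4% of all genes), namely Col12a1, Col5a3, Col20a1 and Col25a1, and DESeq2 called the same 4 and Col1a1 (12.4% of all genes), so Col3a1 and Col4a2 were called by neither. Col20a1 and Col25a1 had to be lower on WD to be tested at all, and without them the counts were 4 of 25 by limma, 2 of 25 by edgeR and 3 of 25 by DESeq2. Limma without sample weights called only Col20a1 and Col25a1 (8.54% of all genes), and so 0 of the rises. With library size alone in place of TMM, 6 were called too, of which 2 were higher and 4 lower, against 23% of all genes. By class the median was 0.90 for the 7 fibrillar genes, -0.20 for the 5 basement membrane genes and 0.20 for the 15 others.

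Col3a1, the chain of type III collagen, was at 20.1, 21.6 and 28.9 CPM in the chow libraries. In WD WT EV its lowest, median and highest levels were 28.7, 39.7 and 91.7 CPM. The ranges touched, with the lowest WD library just under the highest chow library, and 2 WD libraries (WT EV 1 and WT EV 4) stood near 91 CPM. The log2 fold change was 1.11 (SE 0.36, adjusted p = 0.0297). Col5a3, a minor chain of type V collagen, was at 14.4, 3.92 and 7.81 CPM on chow, and at 7.07, 22.3 and 37.9 (lowest, median, highest) on WD. Its chow and WD libraries overlapped through the lowest WD library, and its log2 fold change was 1.60 (SE 0.43, adjusted p = 0.0101). Col1a1, the main chain of type I collagen, was at 3.76, 4.72 and 3.94 CPM on chow and between 6.32 and 34.4 on WD, with a median of 11.5. The groups did not overlap, and the log2 fold change was 1.65 (SE 0.75, adjusted p = 0.115), which did not pass the threshold. Its partner Col1a2 was at 8.31 to 10.4 CPM on chow and 10 to 33.4 on WD, with log2 fold change 0.90 (SE 0.41, adjusted p = 0.123). Col5a1 (0.19, SE 0.21, adjusted p = 0.564) was not called. Col5a2 was at 2.85 and 2.27 CPM in 2 chow libraries and at 25.2 in the third, and its log2 fold change of 0.44 (SE 0.48, adjusted p = 0.541) was negative, at -1.01, in the edgeR quasi-likelihood test and DESeq2.

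The basement membrane chain Col4a2 was at 25.7, 29.7 and 37.9 CPM on chow and 35.5, 38.9 and 60.3 (lowest, median, highest) on WD. Only the lowest 3 WD libraries lay at or below the highest chow library. Its log2 fold change was 0.56 (SE 0.17, adjusted p = 0.0233). Col4a1, its neighbour on the opposite strand with 22 shared exonic bases, was at 46.6 to 61.2 CPM on chow and 49.9 to 97.6 on WD, with log2 fold change 0.35 (SE 0.19, adjusted p = 0.190). Since the strand setting of the counting is not given, reads in such shared bases cannot be assigned to 1 gene. The same holds for 43 bases that Col4a2 shares with Gm15419, and for 99 and 113 bases that Col5a1 shares with 2810430I11Rik and Gm13372, all on the other strand.

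Among the other collagens, Col12a1 was at 1.98, 2.45 and 2.45 CPM on chow, and at 2.54, 5.30 and 6.98 (lowest, median, highest) on WD. All WD libraries were above all chow libraries, with log2 fold change 1.1 (SE 0.27, adjusted p = 0.0057). Col20a1 was at 2.48, 1.47 and 0.592 CPM on chow and at 0.151 to 0.586 on WD, and its log2 fold change was -2.32 (SE 0.43, adjusted p = 0.000438). Col25a1, a transmembrane collagen known from neurons, was at 0.786, 1.29 and 2.29 CPM on chow and at 0.0916 to 0.496 on WD, with log2 fold change -2.06 (SE 0.48, adjusted p = 0.00364). Both had at most 60 counts in any library, and both passed the filter through the chow group alone, so a lower level on WD was needed for them to be tested. Col20a1 shares 79 exonic bases on the same strand with BX649560.1. The microfibril chains Col6a1 (0.34, SE 0.30, adjusted p = 0.447) and Col6a3 (0.39, SE 0.31, adjusted p = 0.397), Col14a1 (0.24, SE 0.12, adjusted p = 0.160) and Col18a1 (-0.09, SE 0.09, adjusted p = 0.523) were not called.

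The diet count rested on 3 chow libraries. Without chow WT EV 1 limma called 1 of 26 collagen genes tested, Col25a1 (6.89% of all genes). Without chow WT EV 2 it called 0 of 25 (5.95% of all genes). Macrophage markers summed to 169 to 204 CPM on chow and 191 to 272 on WD WT EV, and 1 of 7, Cd68, was called (log2 fold change 0.79). Of 8 quiescent stellate markers, Lrat was called (0.54), and of 4 tested myofibroblast markers 0 were, by limma. Portal fibroblast and capsule markers summed to 6.32 to 8.64 CPM on chow and 8.84 to 15.3 on WD, and limma called 0 of the 5 tested. Adipose markers summed to 0.118 to 0.165 and 0.97 to 60.9, with 0 of the 1 tested called. For both lists the groups did not overlap. The adipose sum on WD rested on 1 gene, while Adipoq (mean 0.0562 CPM on chow, 0.0585 on WD) and Plin1 (0.0131 and 0.0138) hardly differed. Cps1, Tat and Serpina1a of the 6 hepatocyte markers were lower on WD (-1.22, -0.95 and -0.68). Lyve1 (1.13) and Kdr (-0.20) of the 7 endothelial markers and the pancreas marker Cela1 (-1.31) were called as well. The part of any cell type in these collagen differences was not tested, and in bulk liver a change in cell number and a change in RNA per cell cannot be told apart.

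**Figure D2:**
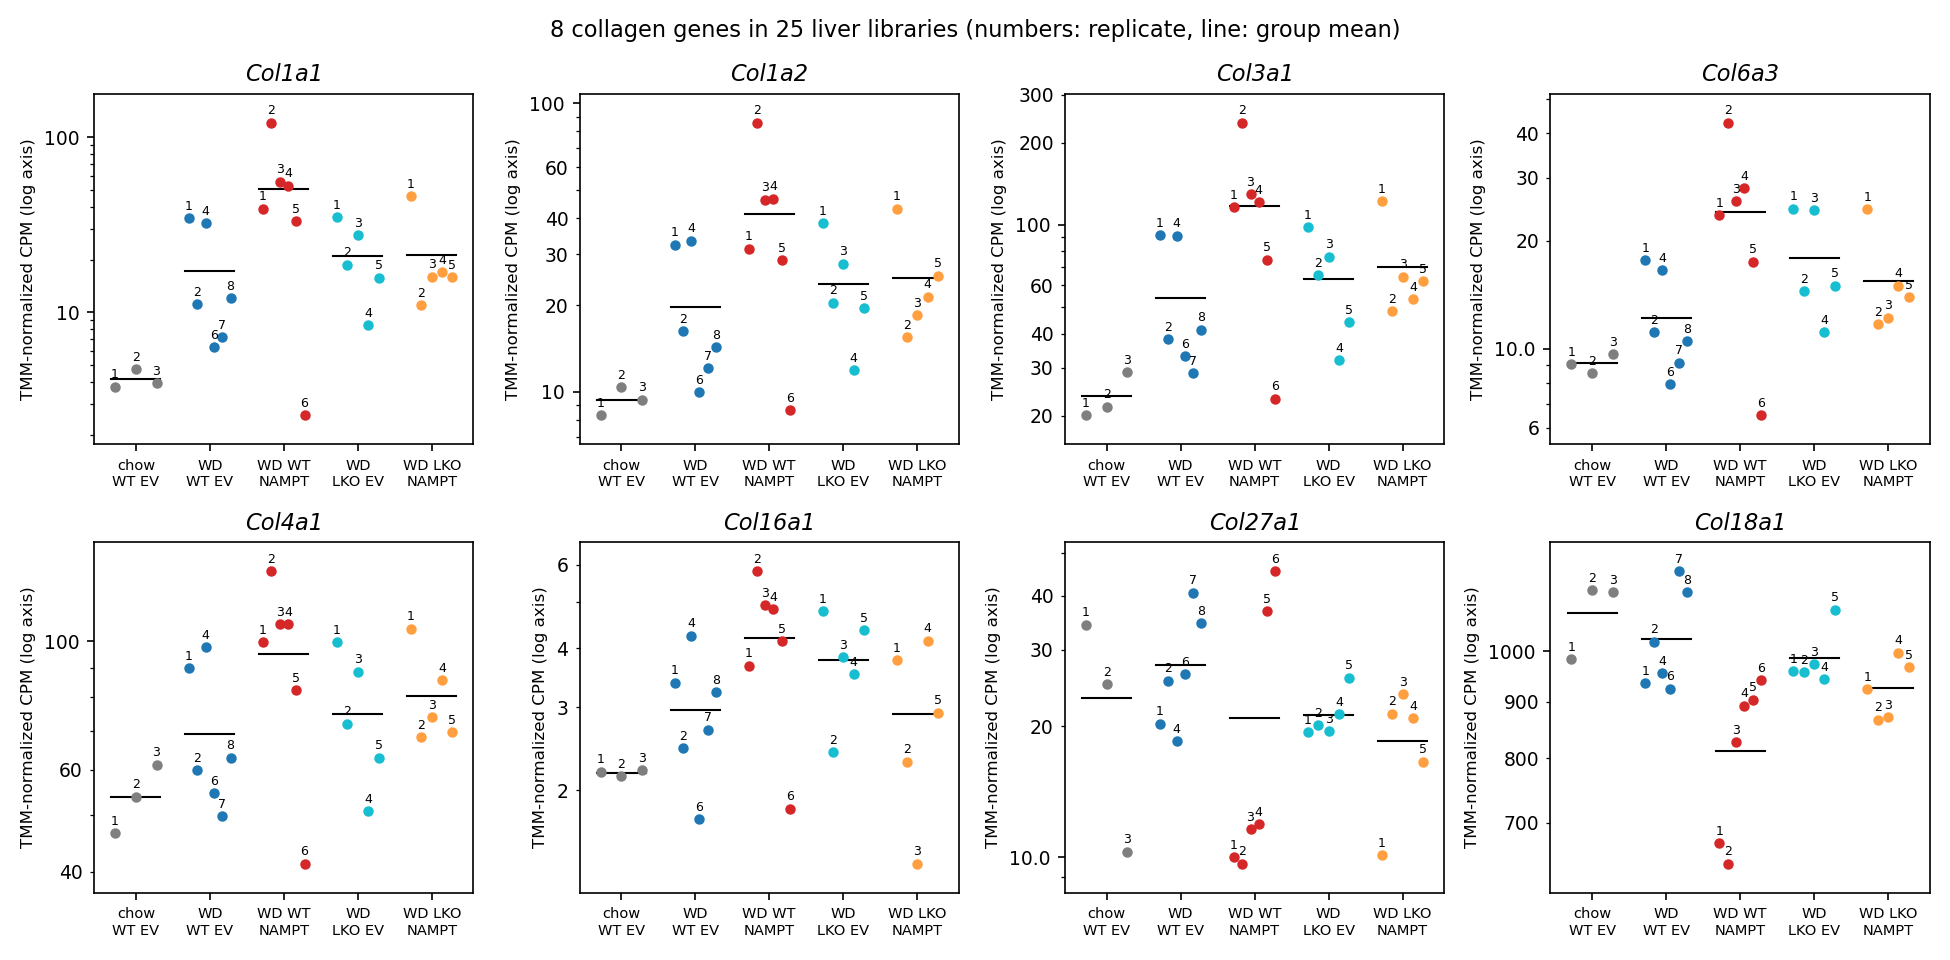
Levels of 8 collagen genes in all 25 libraries (TMM-normalized CPM, log axis), by group, with replicate numbers and lines at group means. WT NAMPT 6 lies at or near the bottom of its group for Col1a1, Col1a2, Col3a1, Col6a3, Col4a1 and Col16a1, and at the top for Col27a1 and Col18a1.

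With NAMPT in WT livers on WD, collagen genes of all 3 classes were higher than with the empty vector. The 9 that rose were the fibrillar Col1a1, Col1a2, Col3a1 and Col5a1, the basement membrane chain Col4a1, the 3 type VI chains Col6a1, Col6a2 and Col6a3, and Col16a1. Col18a1 fell. In all, 10 of 27 were called, against 13.4% of all genes tested. Of the 27, 9 rose and 1 fell, where 7.67% and 5.77% of all genes did, and the median log2 fold change was 0.34 against 0.004 over all genes. The fibrillar median was 1.07, the basement membrane median 0.47 and the median of the others 0.19. The calls depended on the test and on the sample weights. The edgeR quasi-likelihood test called 0 of the 27 (3.04% of all genes) and DESeq2 called 2, Col6a3 and Col18a1 (8.49% of all genes). Limma without sample weights called 0 as well (1.37% of all genes). In the main fit WT NAMPT 6 had the lowest weight of all libraries, 0.336, and WT NAMPT 2 had 0.401. At an unadjusted limma p below 0.05 there were 15 of the 27, against 30.3% of all genes.

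Col1a1 was at 6.32, 11.5 and 34.4 CPM (lowest, median, highest) in WD WT EV and at 2.59, 46.0 and 121 in WD WT NAMPT. Of the 6 NAMPT libraries, 5 were at 33.2 CPM or more, while WT NAMPT 6, at 2.59, was below every other library of the series. The log2 fold change was 1.70 (SE 0.48, adjusted p = 0.0249). Col1a2 went from 10, 15.3 and 33.4 CPM to 8.62, 38.9 and 85.7, with log2 fold change 1.17 (SE 0.33, adjusted p = 0.0233). For Col3a1 the levels were 28.7, 39.7 and 91.7 CPM with EV and 23.1, 118 and 237 with NAMPT, and the log2 fold change was 1.18 (SE 0.33, adjusted p = 0.0233). Col5a1, which nucleates collagen fibrils, was at 7.93 to 18.2 CPM with EV and 8.40 to 32.4 with NAMPT, with log2 fold change 0.69 (SE 0.18, adjusted p = 0.0189). Col5a2 had a change of similar size, 1.07 (SE 0.37), with an adjusted p of 0.052. The fibrillar genes with negative values were Col5a3 (-0.63, SE 0.34, adjusted p = 0.216) and Col27a1 (-0.84, SE 0.29, adjusted p = 0.0537). Col27a1 was at 9.67 to 11.9 CPM in WT NAMPT 1 to 4 and at 36.8 and 45.5 in WT NAMPT 5 and 6, against 18.5 to 40.6 in WD WT EV.

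The ratio of Col1a1 to Col1a2 per kb also differed between libraries. These chains assemble 2 to 1 in type I collagen, but the size of this RNA ratio cannot be read against that. It divides by all annotated exon bases of each gene, 6563 for Col1a1 and 12136 for Col1a2, and so depends on the annotation. Differences between libraries do not depend on these lengths. The ratio was 0.777 to 0.841 in the 3 chow libraries and 1.1 to 1.96 in WD WT EV. In WD WT NAMPT 5 libraries were at 2.09 to 2.61 and WT NAMPT 6 was at 0.555. WD LKO EV libraries ran from 1.3 to 1.83 and WD LKO NAMPT libraries from 1.16 to 1.97. The ratio of Col3a1 to Col1a1 was 3.06 to 4.89 in chow and had a median of 1.54 in WD WT NAMPT, where WT NAMPT 6 was at 5.96. No test was made on these ratios.

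**Figure D3:**
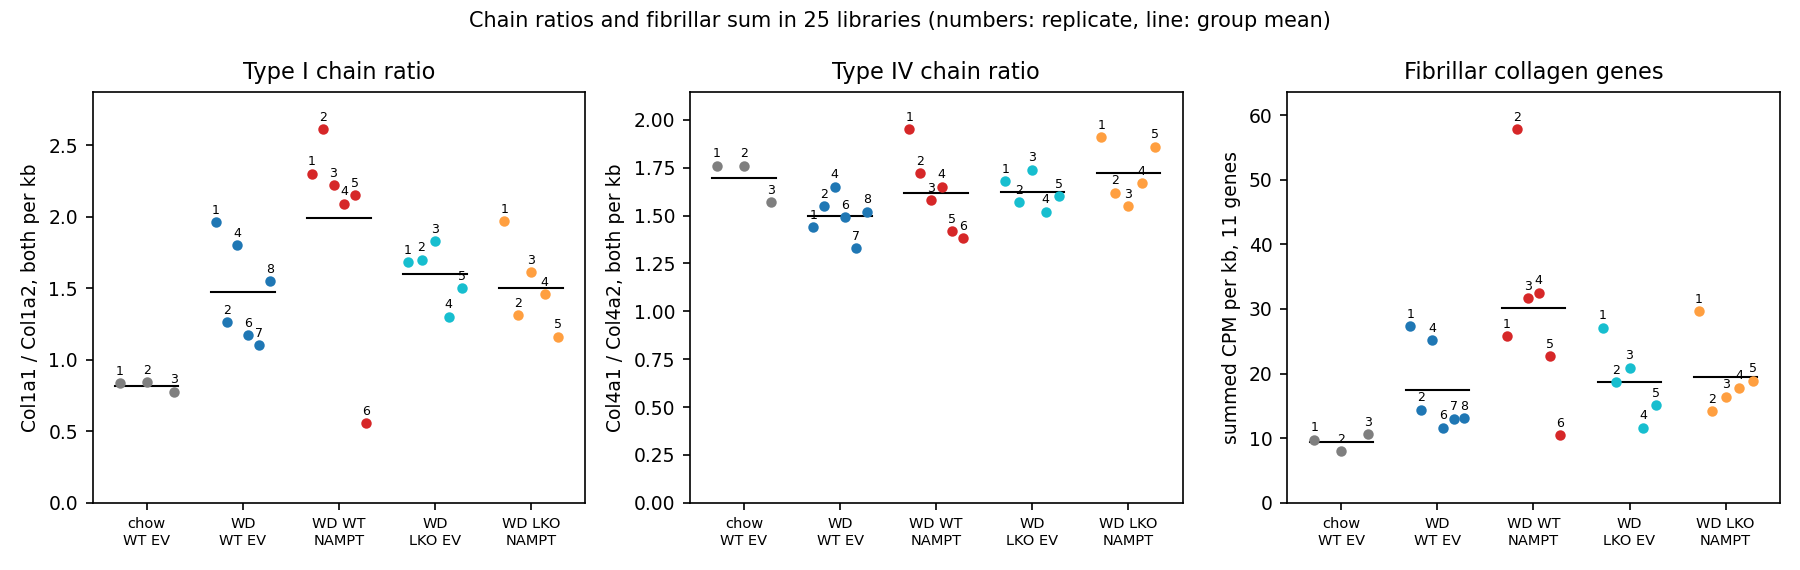
Col1a1 to Col1a2 and Col4a1 to Col4a2 ratios per kilobase of exon, and the summed level of the 11 fibrillar genes (CPM per kb), in each library by group, with replicate numbers and lines at group means. Col1a1 to Col1a2 lies at 0.777 to 0.841 in chow, at 2.09 to 2.61 in 5 WD WT NAMPT libraries and at 0.555 in WT NAMPT 6.

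Of the basement membrane genes, Col4a1 was at 49.9, 61.4 and 97.6 CPM (lowest, median, highest) with EV and 41.3, 103 and 132 with NAMPT. Its log2 fold change was 0.55 (SE 0.19, adjusted p = 0.0476), close to the threshold, and that of Col4a2 was 0.47 (SE 0.16, adjusted p = 0.054). The type VI chains, which form beaded microfibrils, rose together. Col6a1 was at 5.77, 7.90 and 13.2 CPM with EV and 4.15, 15.0 and 26.6 with NAMPT, with log2 fold change 0.95 (SE 0.24, adjusted p = 0.0159). Col6a2 had 0.90 (SE 0.26, adjusted p = 0.0262). Col6a3 was at 7.97, 10.8 and 17.7 CPM with EV and 6.52, 24.7 and 42.8 with NAMPT, with log2 fold change 1.04 (SE 0.26, adjusted p = 0.0144). In each of these chains the groups overlapped through WT NAMPT 5 and WT NAMPT 6. Col16a1 was at 1.74, 2.96 and 4.25 CPM with EV and 1.83, 4.49 and 5.82 with NAMPT, with log2 fold change 0.71 (SE 0.22, adjusted p = 0.0329). Col14a1 was at 0.34 (SE 0.12, adjusted p = 0.0537). Col18a1 was at 925, 988 and 1181 CPM with EV and 643, 860 and 941 with NAMPT, with log2 fold change -0.28 (SE 0.09, adjusted p = 0.0346). With library size alone as scaling, under which the median of all genes is 0.16 in this contrast, Col18a1 was at -0.13 (SE 0.08, adjusted p = 0.256), and with upper-quartile factors at -0.24 (SE 0.09, adjusted p = 0.0642), so its fall was called under neither. The calls were then 12 and 11 of 27, all higher, against 16.2% and 12.9% of all genes.

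Without WT NAMPT 6 there were 14 of 27 collagen genes called, against 20.2% of all genes, and without both WT NAMPT 6 and LKO NAMPT 1 there were 14 as well, against 20.4%. These 2 libraries were singled out after their collagen levels were seen, and leaving out the lowest library of a group raises that group's mean, so the larger count is no support for the difference. Calls over all genes moved in the same fits as those of the collagens. Without WT EV 2 or WT NAMPT 3 there were 0 of 27, where 2.07% and 0.94% of all genes were called. Without WT EV 6 there was 1 (4.47% of all genes), and without WT NAMPT 2 there were 3 (5.32%). Without WT EV 1, WT EV 4 or WT NAMPT 5 there were 14 each, against 15.6%, 17.5% and 19.9% of all genes.

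Macrophage markers summed to 191 to 272 CPM in WD WT EV (median 218) and 189 to 506 in WD WT NAMPT (median 419). The sum was lowest in WT NAMPT 6 and highest in WT NAMPT 2, also the lowest and highest for Col1a1. Quiescent stellate, myofibroblast, portal fibroblast and capsule, and neutrophil sums had the same lowest and highest libraries in that group. Within WD WT EV the macrophage sum was highest in WT EV 2 (272 CPM), while Col1a1 was highest in WT EV 1. Of the 7 macrophage markers, Adgre1 (0.91), Cd68 (1), Csf1r (0.64) and Trem2 (1.92, on the log2 scale) were called. Des (0.66) and Pdgfrb (0.57) were among the quiescent stellate markers called, and the summed level of that list was 195 to 242 CPM with EV and 183 to 266 with NAMPT. Myofibroblast markers summed to 9.29 to 26.5 and 6.84 to 27.5 CPM, and 0 of 4 tested were called, with Cthrc1 at 0 in all chow libraries. Portal fibroblast and capsule markers summed to 8.84 to 15.3 and 10 to 14.1 CPM, with 0 of 5 called. Pecam1 (0.36) and Clec4g (-0.40) of the 7 endothelial markers were called, as was the neutrophil marker S100a9 (1.57). Cholangiocyte, lymphocyte, hepatocyte, adipose and pancreas markers had 0 called by limma. Over the WD libraries adipose markers summed to 0.153 to 75.1 CPM, with 1 of 3 tested, and that gene made up most of the sum. The part of these cells in the collagen result was not tested.

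**Figure D4:**
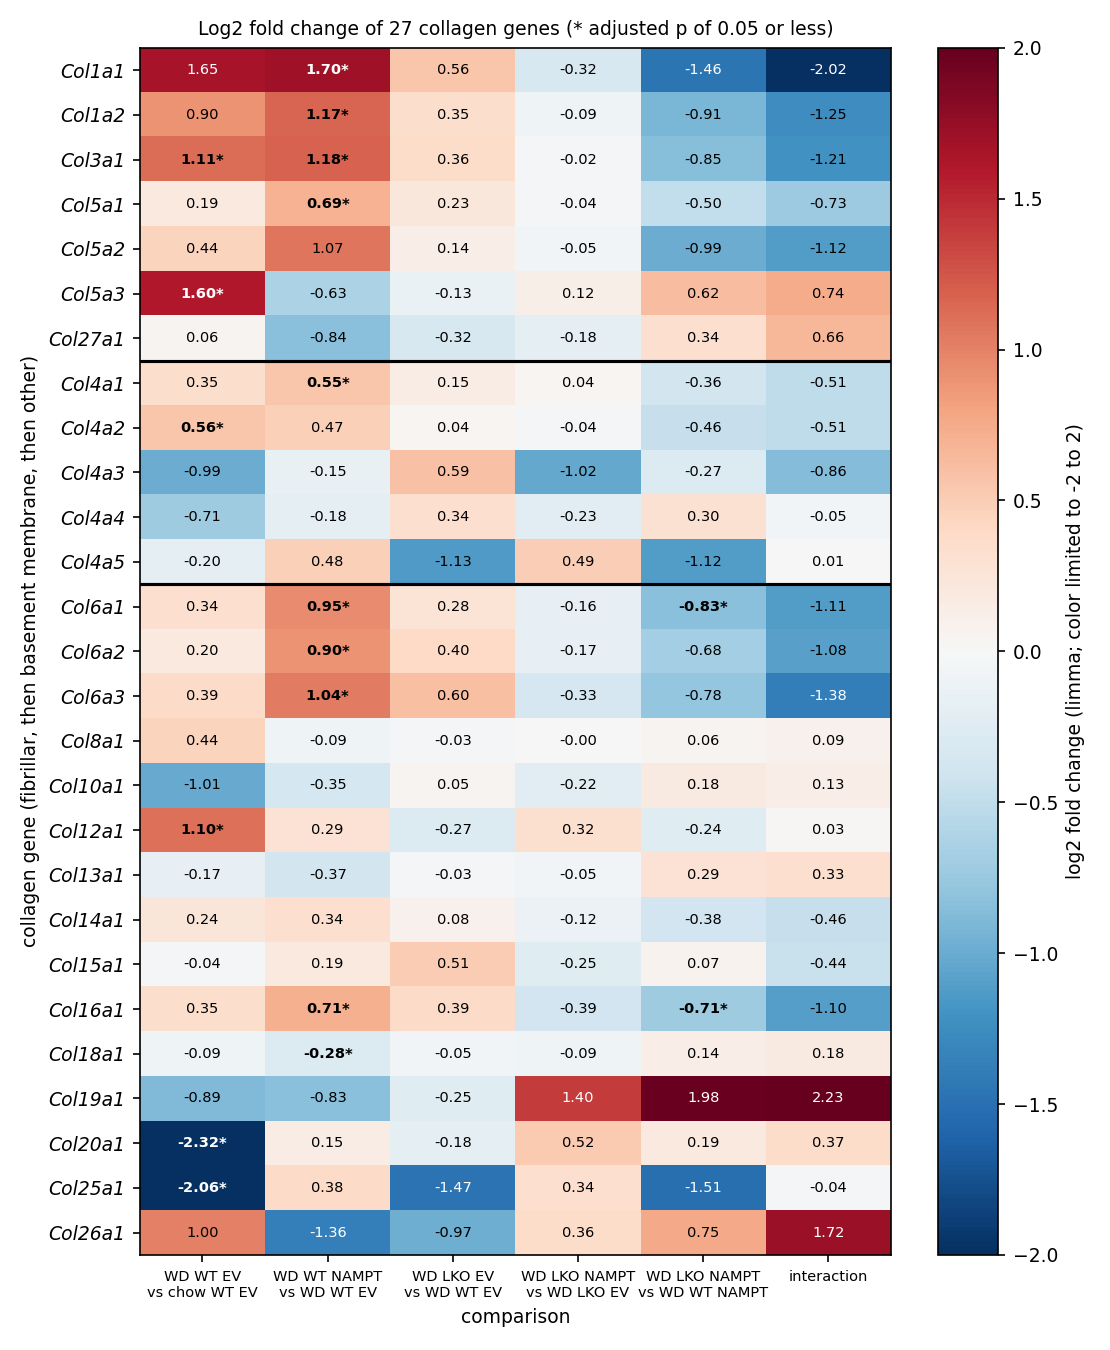
Log2 fold changes (limma) of the 27 tested collagen genes in rows, split by lines into fibrillar, basement membrane and other, in 6 contrasts in columns, as numbers and colors limited to -2 and 2, with a star at an adjusted p of 0.05 or less. The NAMPT contrast in WT has 10 stars, the contrast of the NAMPT groups 2 (Col6a1 and Col16a1), and the LKO EV, LKO NAMPT and interaction columns 0.

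LKO EV livers differed from WT EV livers in no collagen gene at the threshold. The limma fit called 0 of 27, against 0.00711% of all genes (1 gene), and the edgeR quasi-likelihood test and DESeq2 called 0 of 27 as well, against 0% and 0.0782% of all genes. At an unadjusted p below 0.05 there were 4 of 27, against 6.33% of all genes. Col1a1 was at 34.9, 18.7, 27.5, 8.43 and 15.8 CPM in WD LKO EV, within the WD WT EV range apart from the first library. Its log2 fold change was 0.56 (SE 0.50, adjusted p = 0.954). Col3a1 was at 98.1, 65.5, 76.6, 32 and 44 CPM in the same libraries, and the first of these lay above all WD WT EV libraries. Col6a3 was at 24.6, 14.5, 24.4, 11.1 and 15.0 CPM, so 2 LKO libraries lay above all WT EV libraries, with log2 fold change 0.60 (SE 0.26, adjusted p = 0.744). Col25a1 had the most negative value, -1.47 (SE 0.69, adjusted p = 0.774), at 0 to 0.301 CPM. The median over the 27 was 0.08.

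NAMPT in LKO livers likewise called 0 of 27 collagen genes against LKO EV, where 0.00711% of all genes (1 gene) were called. The edgeR quasi-likelihood test and DESeq2 also called 0, against 0% and 0.0427% of all genes, and 1 of 27 had an unadjusted p below 0.05, against 9.63% of all genes. Col1a1 was at 45.9, 11, 16, 17 and 15.9 CPM in WD LKO NAMPT. Apart from LKO NAMPT 1 these lay within the WD LKO EV range, and the log2 fold change was -0.32 (SE 0.50, adjusted p = 0.877). Col6a3 was at 24.5, 11.7, 12.2, 15.0 and 13.9 CPM, with log2 fold change -0.33 (SE 0.26, adjusted p = 0.723). Col3a1 was at 122, 48.4, 64.6, 53.6 and 62.1 CPM, with LKO NAMPT 1 alone above every WD LKO EV library. For Col16a1 the value was -0.39 (SE 0.23, adjusted p = 0.612). Of the 27, 19 were below 0 and 8 above, with a median of -0.05. Macrophage markers summed to 213 to 270 CPM in WD LKO EV and 208 to 406 in WD LKO NAMPT, highest in LKO NAMPT 1, and 0 of 7 were called.

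Between the 2 NAMPT groups, Col6a1 and Col16a1 were lower in LKO than in WT. They were 2 of 27 genes called, both lower, against 7.96% of all genes called and 3.78% called lower. The share called in either direction was thus near that of all genes. Col6a1 was at 19.8, 7.76, 6.76, 7.70 and 8.52 CPM in WD LKO NAMPT, against 4.15, 15.0 and 26.6 (lowest, median, highest) in WD WT NAMPT. The groups overlapped through LKO NAMPT 1 and WT NAMPT 6, and the log2 fold change was -0.83 (SE 0.25, adjusted p = 0.0411). Col16a1 was at 3.77, 2.30, 1.4, 4.15 and 2.92 CPM, with log2 fold change -0.71 (SE 0.22, adjusted p = 0.0498), just at the threshold. Col1a1 (-1.46, SE 0.49, adjusted p = 0.0607), Col6a3 (-0.78, SE 0.26, adjusted p = 0.0576), Col14a1 (-0.38, SE 0.12, adjusted p = 0.0541) and Col1a2 (-0.91, SE 0.34, adjusted p = 0.0823) were not called. Nor were Col3a1 (-0.85, SE 0.35, adjusted p = 0.113), Col5a1 (-0.50, SE 0.19, adjusted p = 0.0838), Col5a2 (-0.99, SE 0.37, adjusted p = 0.0883), Col6a2 (-0.68, SE 0.26, adjusted p = 0.0918) and Col4a2 (-0.46, SE 0.17, adjusted p = 0.0821). The fibrillar median was -0.85, against -0.005 over all genes. Among markers, Pdgfrb (-0.61) of stellate cells, Csf1r (-0.56) of macrophages, Upk3b (-1.53) of the capsule, Sox9 (-1.44) of cholangiocytes and the hepatocyte gene Tat (-0.74) were among those called lower in the same contrast, and their part in the collagen values was not tested. Macrophage sums were 189 to 506 CPM in WD WT NAMPT and 208 to 406 in WD LKO NAMPT.

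The calls between the NAMPT groups depended on single libraries. The edgeR quasi-likelihood test called 0 of 27 (0.32% of all genes) and DESeq2 0 (2.09%). Without WT NAMPT 6 there were 11 called (16.3% of all genes), without LKO NAMPT 1 there were 10 (16.1%), and without both there were 13, against 22% of all genes. Leaving out the lowest library of one group and the highest of the other widens the difference by construction, so these counts do not support it. Without WT NAMPT 5 there were 7 (13.9% of all genes) and without LKO NAMPT 4 there were 4 of 26 (12.9%). Leaving out any other library of these groups gave 0 by limma, in fits that called 0.556% to 4.67% of all genes without WT NAMPT 1, 2, 3 or 4 and 0% to 1.42% without LKO NAMPT 2, 3 or 5.

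**Figure D5:**
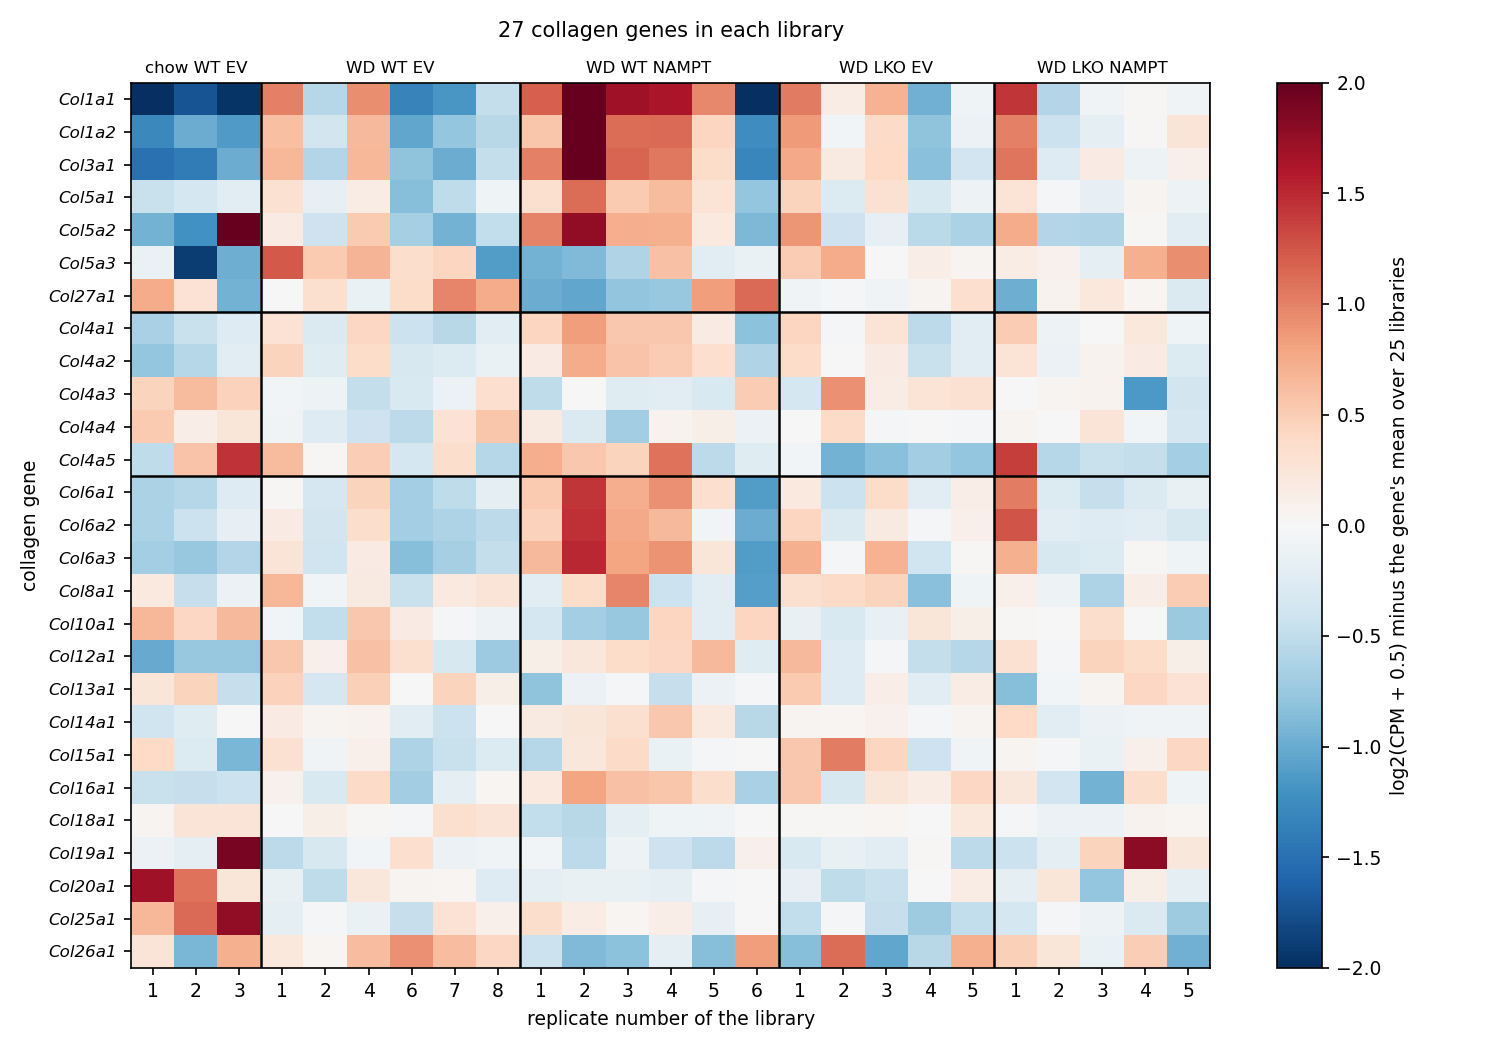
Levels of the 27 tested collagen genes (rows) in each of 25 libraries (columns, by group and replicate number), as log2(CPM + 0.5) minus the gene's mean over all libraries, with red above and blue below it. WT NAMPT 6 has low fibrillar and type VI levels beside its group, and LKO NAMPT 1 has high ones.

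The interaction asks whether the NAMPT difference was smaller in LKO than in WT. It called 0 of 27 collagen genes, against 0.00711% of all genes (1 gene), and the edgeR quasi-likelihood test and DESeq2 called 0 too, against 0% and 0.0995% of all genes. At an unadjusted p below 0.05 there were 11 of 27, against 21.2% of all genes, and the median log2 value was -0.44 against -0.010 over all genes. The fibrillar median was -1.12, the basement membrane median -0.51 and the median of the others 0.03. Col6a3 came nearest to the threshold at -1.38 (SE 0.36, adjusted p = 0.0745), followed by Col16a1 at -1.1 (SE 0.31, adjusted p = 0.0843) and Col6a1 at -1.11 (SE 0.35, adjusted p = 0.0982). Col1a1 was at -2.02 (SE 0.70, adjusted p = 0.115). Without both WT NAMPT 6 and LKO NAMPT 1, 9 of 27 were called, against 11.2% of all genes, with the same limit on what that choice can show. Without WT NAMPT 6 alone there were 6 (4.53% of all genes), and without LKO NAMPT 1 alone 4 (4.82%).

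The genes that process and assemble collagen were followed as a list of 50, of which 44 were tested. On WD, 9 of 44 were called, 6 higher and 3 lower, where 22% of all genes were called, so the share was near that of all genes. They were led by the matrix partners Tnc (1.90, SE 0.63, adjusted p = 0.0327) and Postn (1.07, SE 0.22, adjusted p = 0.00156) and, among the falls, the crosslinking enzyme Loxl4 (-2.86, SE 0.31, adjusted p = 7.4e-07) and the glycosyltransferase Colgalt2 (-2.27, SE 0.39, adjusted p = 0.000228). With NAMPT in WT, 9 of 44 were called, 8 higher and 1 lower, against 13.4% of all genes. The rises were led by the collagen receptor Ddr1 (1.19), Tnc (1.18) and the crosslinking enzyme Loxl1 (1.17). The propeptide protease Bmp1 fell, at -0.32 (SE 0.09, adjusted p = 0.0253). Between the NAMPT groups 5 of 44 were called, against 7.96% of all genes. The export genes Mia2 (0.35) and Sec23a (0.29) were higher in LKO, and Lum, a fibril-binding proteoglycan (-0.90), the propeptide protease Adamts2 (-0.65) and the collagen receptor Ddr2 (-0.39) were lower. The other 3 contrasts called 0 of 44 by limma, with 7, 5 and 16 below an unadjusted p of 0.05 for LKO EV, NAMPT in LKO and the interaction, where 6.33%, 9.63% and 21.2% of all genes were. The median over the list was 0.21 on WD, 0.26 with NAMPT in WT and -0.25 between the NAMPT groups.

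The 9 tested genes outside this account had adjusted p-values of 0.0521 or more in each contrast. They included the type IV chains Col4a3, Col4a4 and Col4a5 of specialised basement membranes, with mean levels of 0.860, 0.71 and 1.90 CPM. Col15a1, a relative of Col18a1 found in vessel walls, was at a mean of 10.3 CPM with log2 values from -0.44 to 0.51, and the transmembrane Col13a1 at 6.18 CPM with values from -0.37 to 0.33. Col26a1, at a mean of 1.4 CPM, ranged from -1.36 to 1.72. Col8a1 (0.874 CPM) ranged from -0.09 to 0.44, Col10a1 (0.725 CPM) from -1.01 to 0.18 and Col19a1 (0.309 CPM) from -0.89 to 2.23.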

How the data were processed

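Livers from 25 mice were profiled by poly-A selected RNA sequencing. The authors aligned single-end reads to GRCm38 with STAR and counted reads per gene with featureCounts (versions 2.5.1a and 1.4.6-p5 per the submitters' processing notes, while the methods of the study name others). The strand setting is not given in the sources used here. The deposited files hold raw counts for 41388 identifiers beside CPM and RPKM columns. The CPM and RPKM deposited by the authors matched values recomputed from the counts to within a relative 5.9e-14, and only the counts were used. No file was left out, and no per-sample column lacked a sample.

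Genes above 1 CPM in at least 2 libraries were kept, 4 ribosomal RNA genes left out, and 14065 tested. Counts were scaled by TMM (edgeR 4.0.16) and fitted with voomWithQualityWeights in limma 3.58.1 (R 4.3.3), with all 25 libraries in 1 fit and 1 mean per group. The Benjamini-Hochberg method adjusted p-values over all genes, and an adjusted p of 0.05 or less was called. The interaction is the NAMPT difference in LKO minus that in WT. WD WT EV, WD WT NAMPT, WD LKO EV and WD LKO NAMPT each enter several contrasts, which therefore share libraries. Levels per kb divide by the exon length in the files. The fit was tested on simulated data. Within groups no library was a copy of another (chi-square over degrees of freedom at least 15.6 for each pair of a group). Each library is 1 mouse, so p-values cover the spread between mice.

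Symbols were joined from the reference annotation, which lists 40254 of the identifiers. Genes described in full were those called in any contrast, Col1a1, Col1a2, Col3a1, Col5a1, Col5a2, Col4a1 and Col4a2, and the 8 with the highest mean CPM. Of the assembly list, the largest called changes were named. Marker lists covered hepatocytes, quiescent stellate cells, myofibroblasts, portal fibroblasts and capsule, endothelium, cholangiocytes, macrophages, neutrophils, lymphocytes, adipose tissue and pancreas. The values of 1 marker gene are not reported here. The genes and lists were chosen with earlier results of these data known. Alternatives were the edgeR quasi-likelihood test, DESeq2 1.42.0, limma without sample weights, other size factors and filters, fewer libraries and the replicate number as a block.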

Additional observations from a re-analysis of the deposited data

Results flagged for a closer look

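The values of the named genes and of class sums and ratios, 88 sets over the WD groups, were screened for a library far from the rest of its group with Dixon's criterion. The chow group, with 3 libraries, was not screened, though its Col5a2 levels were 2.27, 2.85 and 25.2 CPM. For independent, normally distributed values the criterion marks about 1 in 20 sets. The sets here share libraries, so that rate need not hold. In 9 sets a library stood apart. Of these, 6 were the same library, LKO NAMPT 1, which was the highest of its group for Col1a1 (45.9 CPM, next 17), Col3a1 (122, next 64.6), Col6a1 (19.8, next 8.52), Col6a2 (14.9, next 5.08), Col6a3 (24.5, next 15.0) and Col14a1 (126, next 90.4). Its summed macrophage markers were also the highest of its group, at 406 CPM. So were its quiescent stellate (259 CPM), myofibroblast (19.3), portal fibroblast and capsule (16.2) and neutrophil (8.52) sums. WT NAMPT 6 had a Col1a1 to Col1a2 ratio per kb of 0.555, against 2.09 in the nearest library of its group. In WD LKO EV, replicate 5 was highest for Col18a1 (1090 CPM, next 974) and replicate 1 for Col5a2 (11.3 CPM, next 5.22).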

How the results depend on the processing

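Of 61 log2 fold changes given for single genes, 58 kept their direction under every alternative tried, and of the 18 called, Col20a1 and Col25a1 on WD stayed called in each fit that tested them, which is no support, since both pass the filter only through the chow libraries and were not tested in some fits with a chow library left out. The exceptions in direction were Col5a2 on WD (-1.01 with the edgeR quasi-likelihood test, -1.01 with DESeq2, -0.29 without sample weights, and -0.90 to 0.85 leaving out 1 library), Col1a1 in LKO EV against WT EV (-0.26 with the replicate block) and Col1a1 with NAMPT in LKO (0.01 with edgeR, 0.01 with DESeq2, and -0.59 to 0.03 leaving out 1 library). For the diet, 6 genes called became 2 without sample weights, Col20a1 and Col25a1 (8.54% of all genes), and 0 to 7 leaving out 1 library. For NAMPT in WT, 10 became 0 with edgeR, 2 with DESeq2, 0 without sample weights (1.37% of all genes), 1 of 44 without a filter (1.8%), 3 of 23 with only the groups compared (5.85%), and 0 to 14 leaving out 1 library, so calls over all genes fell as well. With a filter on the mean CPM the count was 13 of 20, of which 12 were higher (14.7% of all genes). For LKO against WT with NAMPT, 2 became 0 with edgeR, DESeq2, no weights, no filter or only the groups compared (0.27%, 0.412% and 0.095% of all genes for the last 3), 0 to 11 leaving out 1 library, and 13 without WT NAMPT 6 and LKO NAMPT 1. For the interaction, 0 became 0 to 6 leaving out 1 library and 9 without both, libraries picked after their collagen levels were seen. LKO EV against WT EV and NAMPT in LKO stayed at 0 in every fit. The causes were not tested, except that fits without a filter test more genes and fits on fewer libraries have less to estimate the spread from. Under library size alone the median of all genes was 0.16 with NAMPT in WT, -0.12 between the NAMPT groups and -0.15 in the interaction.

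With the replicate number of the titles as a replicate block, 14 genes were called on WD (27.3% of all genes), 0 with NAMPT in WT (6.29%) and 2 between the NAMPT groups (2.93%). The last 2 were Col1a1 and Col19a1, in place of Col6a1 and Col16a1. Correlations of the deviations of same-numbered mice ran from -0.34 to 0.38. Those of replicate 1 were 0.14 to 0.38 among the WD groups and that of replicate 6 was 0.37, but in each contrast at least 1 number was below 0.1, and no label says that a number marks a shared litter or day, so the numbers were taken as names and not as pairs. Depth limits Col20a1, Col25a1 and the 17 genes below the filter, and 3 chow libraries limit the diet contrast.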
